A study of Mus musculus with 4 samples.

Results

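The small leucine-rich proteoglycans followed here are the 10 mouse genes *Optc*, *Dcn*, *Lum*, *Bgn*, *Fmod*, *Epyc*, *Ogn*, *Prelp*, *Omd* and *Kera*, out of 24322 gene symbols measured by RNA-seq in 4 libraries. They were chosen by name as a gene family, with the difference between control and *Rax* iCKO libraries already known, and *Optc* is also among the genes that the study picked on these same libraries for their fold change. The genotype differences of the 10 genes are therefore given as descriptions, and no test is read from them.

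Each library came from the mTFP-positive cells of 1 mouse, collected by FACS from the retina. The mice carried the transgene *Rlbp1-CreERT2*, in which a promoter fragment of *Rlbp1*, a Müller glial gene, drives a Cre recombinase that needs tamoxifen, and the reporter *R26-CAG-LoxP-mTFP1*, which makes the teal fluorescent protein mTFP1 once Cre has acted. The 2 control mice (numbers 7984 and 3911) carried 1 floxed and 1 intact *Rax* allele (Raxflox/WT), and the 2 *Rax* iCKO mice (numbers 7983 and 3914) carried 2 floxed alleles (Raxflox/flox), on a background labelled 129S6. All 4 mice were given tamoxifen at P4, and their cells were sorted at P14, so that Cre, the reporter and tamoxifen are shared by both groups and only the second *Rax* allele differs by design. The *Rlbp1* promoter is also active in the pigment epithelium, and sorted cells are a population in which fewer cells of a type and less RNA per cell cannot be told apart. Levels are in FPKM, fragments scaled to the length of a gene and to the mapped fragments of its library, so that levels can be compared between genes.

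These genes encode secreted proteins with a core of leucine-rich repeats, and many of them carry chondroitin, dermatan or keratan sulfate chains. They bind collagen fibrils and set fibril diameter and spacing in cornea, sclera, tendon, cartilage and bone, and several of them also bind growth factors. Opticin, the product of *Optc*, coats the collagen fibrils of the vitreous and is known as a product of the ciliary epithelium. Müller glia are the main glial cells of the retina, and their endfeet face the vitreous.

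Most of the 10 genes lie in 3 clusters of the genome (GRCm38). *Optc* (1: 133897199 to 133907999) and *Prelp* (1: 133910304 to 133921414) lie head to tail on the minus strand of chromosome 1, 2.305 kb apart, and *Fmod* (1: 134037254 to 134048277, plus strand) starts 115.84 kb after the end of *Prelp*. *Dcn*, *Lum*, *Kera* and *Epyc* lie in that order on the plus strand of chromosome 10 within 202.845 kb (97479609 to 97682454). *Omd* (49582462 to 49592822) and *Ogn* (49608046 to 49624501) lie on the plus strand of chromosome 13, 15.224 kb apart, after *Ecm2* and *Aspn*, and all 4 sit inside the longer gene *Cenpp* on the opposite strand. *Bgn* stands alone on the X chromosome (73483602 to 73495933, plus strand).

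The upstream sequences of 4 members are shown because the levels of *Optc*, *Prelp* and *Omd* carry the account below, and because *Epyc* is the only member whose window holds TAATT, the sequence that the study took as a predicted Rax site. Each run is the 250 bases before a RefSeq start in GRCm38.p6, 5′ to 3′ on the gene's strand. They are chr1:133908000-133908249 (minus strand) for *Optc*, chr1:133921402-133921651 (minus strand) for *Prelp*, chr13:49582212-49582461 (plus strand) for *Omd* and chr10:97643818-97644067 (plus strand) for *Epyc*. Capitals mark TAATT on either strand.
Optc: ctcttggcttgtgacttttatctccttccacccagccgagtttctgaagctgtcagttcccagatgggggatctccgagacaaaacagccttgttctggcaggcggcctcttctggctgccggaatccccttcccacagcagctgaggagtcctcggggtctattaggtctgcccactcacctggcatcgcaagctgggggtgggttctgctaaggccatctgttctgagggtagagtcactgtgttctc
Prelp: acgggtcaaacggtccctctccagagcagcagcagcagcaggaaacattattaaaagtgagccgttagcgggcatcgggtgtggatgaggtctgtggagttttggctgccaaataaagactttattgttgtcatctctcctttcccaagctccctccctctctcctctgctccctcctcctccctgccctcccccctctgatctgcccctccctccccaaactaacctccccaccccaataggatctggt
Omd: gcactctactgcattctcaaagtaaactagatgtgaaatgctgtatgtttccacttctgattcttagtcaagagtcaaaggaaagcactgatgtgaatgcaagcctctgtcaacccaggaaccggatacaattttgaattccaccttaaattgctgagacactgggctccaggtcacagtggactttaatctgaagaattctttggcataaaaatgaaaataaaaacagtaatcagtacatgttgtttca
Epyc: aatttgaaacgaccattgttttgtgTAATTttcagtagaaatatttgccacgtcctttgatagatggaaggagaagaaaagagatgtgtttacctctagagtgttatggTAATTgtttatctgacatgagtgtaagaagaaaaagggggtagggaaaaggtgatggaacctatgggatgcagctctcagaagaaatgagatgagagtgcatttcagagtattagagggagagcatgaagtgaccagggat

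Windows were found for 8 of the 10 genes, 9 windows in all, since *Epyc* has 2 RefSeq starts. Only *Epyc* held TAATT, 225 and 141 bases before the start printed above and 3 times in its other window. Of 32851 mouse windows of the same length, 25% had a match on either strand. The shorter TAAT, which lies within TAATT, was present 1 time in *Optc* and 2 times each in *Prelp* and *Omd*. The windows also differed in base composition, with a GC content of 56.8% in *Optc*, 55.6% in *Prelp*, 38.4% in *Omd* and 39.2% in the printed *Epyc* window. A match is a description of letters, and a window without one says nothing about a factor.

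The control mice (7984, 3911) had 189 and 181 FPKM of *Rax*, the targeted gene, and the *Rax* iCKO mice (7983, 3914) had 111 and 98.4 FPKM, so its level separated the groups in the labelled direction. The files hold no read counts, but low values move in whole-read steps, which put the mapped reads at about 9430000, 12720000, 9280000 and 9310000 in mice 7983, 7984, 3911 and 3914. The 14 Müller glial markers (*Rlbp1*, *Glul*, *Apoe* and others) were all above 0 in every library, and their summed level was 18315 and 14373 FPKM in controls and 12390 and 12645 FPKM in *Rax* iCKO.

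The 10 genes covered the whole range from listed at 0 to highly expressed. *Prelp* led, *Omd* came next with *Optc* after it, and these 3 ranges did not touch. Their values over the 4 libraries ran from 37.6 to 99.7 FPKM for *Prelp*, from 7.55 to 13.6 FPKM for *Omd* and from 0.994 to 4.42 FPKM for *Optc*. *Prelp* lay above between 88.1% and 95.7% of all symbols of a library, *Omd* above between 67.4% and 75.6%, and *Optc* above between 49.5% and 62.6%. *Fmod* followed at 0.646 to 1.47 FPKM and *Bgn* at 0 to 1.04 FPKM, and neither was separated from its neighbours in the order, since *Optc* exceeded *Fmod* in 3 of 4 libraries and *Fmod* exceeded *Bgn* in 3 of 4. *Ogn*, *Dcn* and *Lum* did not pass 0.138, 0.0985 and 0.0575 FPKM. *Epyc* and *Kera* were listed at 0 in all 4 libraries. Thus 8 of the 10 genes were above 0 in at least 1 library, 4 in all 4 libraries, and 3 reached the mean FPKM of at least 1 that was required for the fit across genes. *Optc* was just inside that limit at a mean of 2.50 FPKM, and *Fmod* just outside at 0.943 FPKM.

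**Figure D1:**
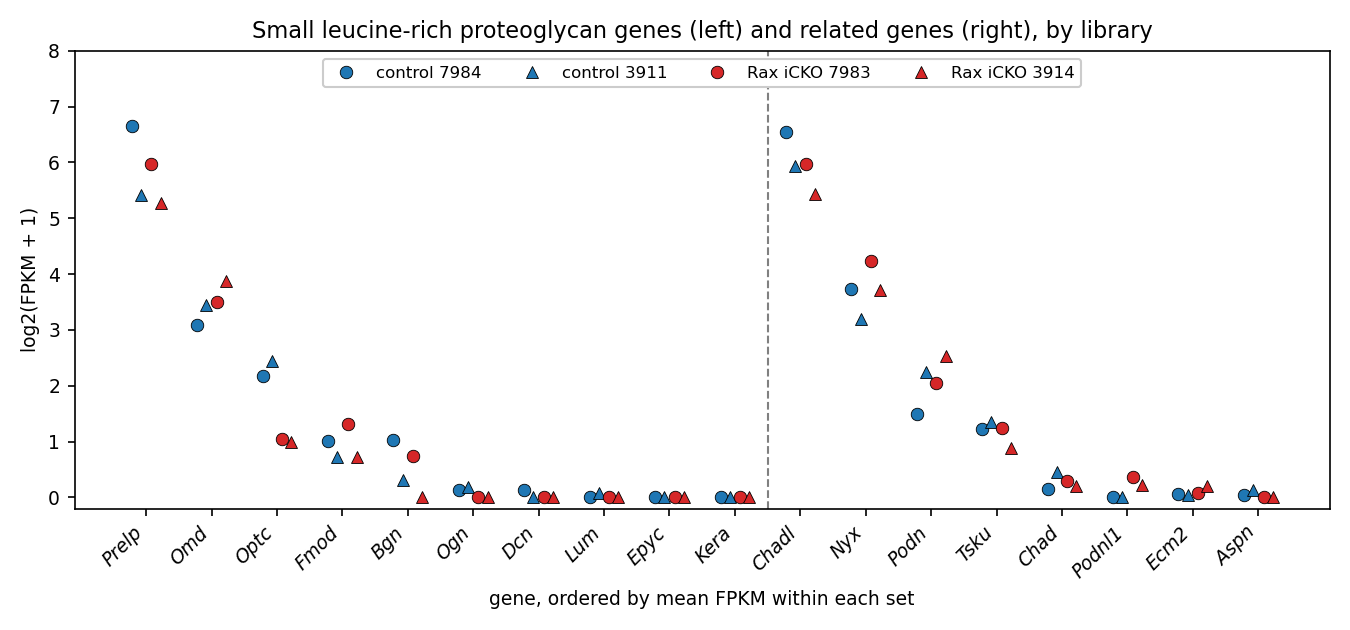
Level of each of the 10 small leucine-rich proteoglycan genes (left of the dashed line) and 8 related genes (right) in log2(FPKM + 1), 1 point per library, with circles for mice 7983 and 7984, triangles for mice 3911 and 3914, blue for control and red for *Rax* iCKO. *Prelp*, *Omd* and *Optc* stand in that order without touching, and *Epyc* and *Kera* lie at 0 in all 4 libraries.

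Opticin RNA was low in both groups and lower in both *Rax* iCKO libraries. *Optc* was at 3.51 FPKM in control mouse 7984 and at 4.42 FPKM in control mouse 3911, compared with 1.07 FPKM in *Rax* iCKO mouse 7983 and 0.994 FPKM in *Rax* iCKO mouse 3914. Both controls were high, both *Rax* iCKO libraries were low and close to each other, and the groups did not overlap. The means were 3.96 ± 0.644 FPKM (SD, n = 2) in control and 1.03 ± 0.0504 FPKM (SD, n = 2) in *Rax* iCKO, a 3.85-fold lower level. The difference was -1.28 (standard error 0.28) on the log2(FPKM + 1) scale, which understates the change of a gene at this level. Mouse 7983 minus mouse 7984 gave -1.13 and mouse 3914 minus mouse 3911 gave -1.44. With each mouse left out in turn the group difference ranged from -1.42 to -1.15. Since the groups did not overlap, all these differences had to be negative, and only their sizes are informative.

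The depth behind *Optc* is small. From the shortest and the longest coding transcript, its level corresponds to about 8 to 17 reads in mouse 7983 and 7 to 16 reads in mouse 3914. In the controls it corresponds to about 36 to 75 reads in mouse 7984 and 33 to 69 reads in mouse 3911. A noncoding gene, *Gm15851*, is annotated on the opposite strand across *Optc* and *Prelp* and is not among the symbols used here, and the sources used here do not say whether the counting used strand.

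*Prelp* encodes a proline- and arginine-rich member that is thought to link basement membranes to connective tissue. It was at 99.7 FPKM in control mouse 7984 and at 41.8 FPKM in control mouse 3911, compared with 61.7 FPKM in *Rax* iCKO mouse 7983 and 37.6 FPKM in *Rax* iCKO mouse 3914. A *Rax* iCKO library lay between the 2 controls, so the groups overlapped. The means were 70.8 ± 41.0 FPKM (SD, n = 2) in control and 49.6 ± 17.0 FPKM (SD, n = 2) in *Rax* iCKO (ratio 0.701). The difference of -0.42 (standard error 0.45) on the log2 scale was smaller than its error. With a replicate block by run the standard error was 0.16, and limma did not call it either. Mouse 7983 minus mouse 7984 gave -0.69, and mouse 3914 minus mouse 3911 gave -0.15. Leaving out 1 mouse at a time moved it from -1.04 (without control mouse 3911) to 0.20 (without control mouse 7984), and each such fit also leaves the runs of mouse numbers unequal.

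*Omd* encodes osteomodulin, a keratan sulfate proteoglycan known from bone. It was at 7.55 FPKM in control mouse 7984 and at 9.93 FPKM in control mouse 3911, compared with 10.3 FPKM in *Rax* iCKO mouse 7983 and 13.6 FPKM in *Rax* iCKO mouse 3914. Both *Rax* iCKO libraries were above both controls, by a narrow margin between mice 7983 and 3911. The means were 8.74 ± 1.69 FPKM (SD, n = 2) in control and 11.98 ± 2.35 FPKM (SD, n = 2) in *Rax* iCKO (ratio 1.37), with a difference of 0.41 (standard error 0.27) on the log2 scale. It was 0.40 in one pair of mice close in number and 0.42 in the other. The groups overlapped after quantile normalization or after setting equal medians, and *Omd* lies inside *Cenpp*, which was at 1.24, 2.58, 1.39 and 3.52 FPKM in mice 7983, 7984, 3911 and 3914, so reads of the 2 genes may not be separable without strand.

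**Figure D2:**
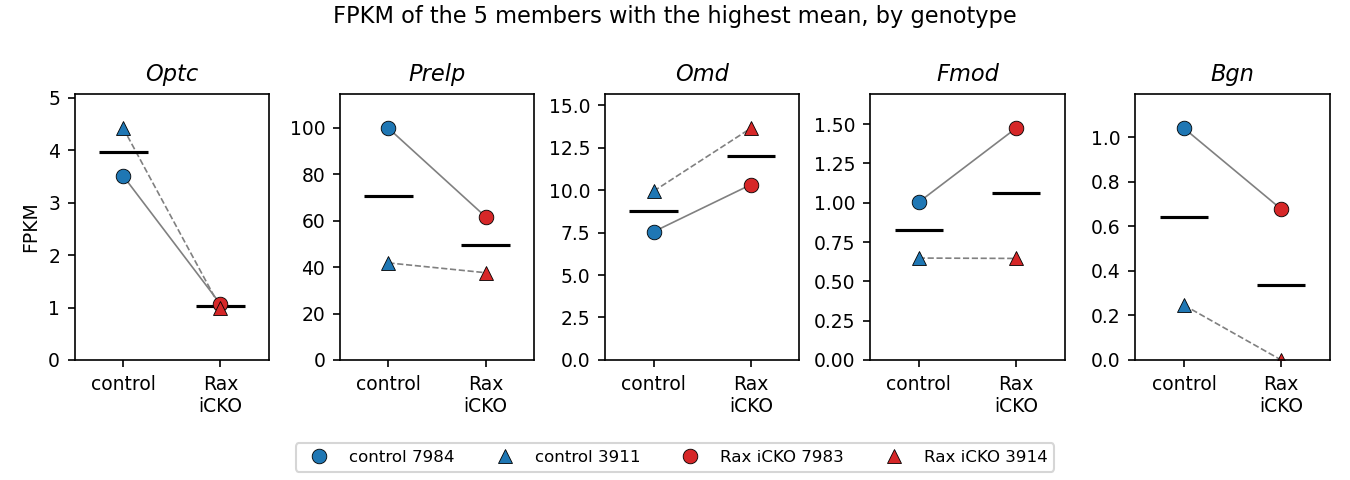
FPKM of *Optc*, *Prelp*, *Omd*, *Fmod* and *Bgn* in control (blue) and *Rax* iCKO (red), 1 point per library, each panel with its own axis from 0. Black bars are group means, and lines join the mice close in number (solid for 7983 and 7984, dashed for 3911 and 3914). *Optc* separates the groups downward from a mean of 3.96 to 1.03, *Omd* upward from 8.74 to 11.98, and the groups of the other 3 genes overlap.

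*Fmod*, for fibromodulin, which binds collagen fibrils in tendon and cartilage, was at 1.004 FPKM in control mouse 7984 and 0.648 FPKM in control mouse 3911, compared with 1.47 FPKM in *Rax* iCKO mouse 7983 and 0.646 FPKM in *Rax* iCKO mouse 3914. The control values fell between the *Rax* iCKO values, so the groups overlapped. These levels correspond to about 18 to 41 reads. *Bgn*, for biglycan, which carries chondroitin or dermatan sulfate chains, was at 1.04 FPKM in control mouse 7984 and 0.246 FPKM in control mouse 3911, compared with 0.677 FPKM in *Rax* iCKO mouse 7983 and 0 in *Rax* iCKO mouse 3914. The groups overlapped here too. *Bgn* is X-linked, and *Xist*, the RNA that coats the inactive X, had 24.5 and 21.2 FPKM in the controls against 0.0119 and 0.00605 FPKM in *Rax* iCKO (mice 7983, 3914). The Y-linked *Eif2s3y* was at 43.7 FPKM in mouse 7983 and at 0 in the other 3. *Xist* was 1 of the 3 genes that limma called between the genotypes (adjusted p = 0.0167). *Xist* therefore runs with genotype in every comparison of control with *Rax* iCKO here. The part of the sex chromosomes in the values of *Bgn*, *Optc*, *Omd* or the companion genes was not tested.

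*Ogn* encodes osteoglycin, also called mimecan, a keratan sulfate proteoglycan of cornea and bone. It was at 0.101 FPKM in control mouse 7984 and 0.138 FPKM in control mouse 3911 and was listed at 0 in both *Rax* iCKO libraries. The groups did not overlap, but each control value corresponds to about 3 reads, which is also the limit that a count of 0 allows (between 0.0997 and 0.137 FPKM), so no fold is given. *Dcn*, for decorin, which binds collagen and TGF-beta, was above 0 in control mouse 7984 only, at 0.0985 FPKM or about 2 reads. *Lum*, for lumican, which orders the collagen of the cornea, was above 0 in control mouse 3911 only, at 0.0575 FPKM or about 1 read. *Epyc*, for epiphycan of growth cartilage, and *Kera*, for keratocan of the cornea, gave no read in any library, which allows up to 0.101 to 0.138 FPKM for *Epyc* and 0.113 to 0.155 FPKM for *Kera*. These limits stand for 3 reads and cover counting error alone. RNA of these 5 genes was not detectable, or was near 1 to 3 reads, at this depth.

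Among the 8 members with a mean above 0, 2 were lower with groups that did not overlap (*Optc* and *Ogn*) and 1 was higher (*Omd*). Of the 17865 genes with a mean above 0, 14.5% were lower in that sense and 13.7% were higher. Among the 3 members in the fit, 1 was lower and 1 higher, beside 14.1% and 15.4% of the 12363 genes tested. limma with Benjamini-Hochberg adjustment called 0 of the 3, and 1 (*Optc*) was under 0.05 without adjustment. With a replicate block by run, it called 1 of the 3 (*Optc*), beside 0.574% of all tested genes. Without the block it called 0.0243% of all tested genes (3 of 12363), with 198 lower and 156 higher genes under 0.05 without adjustment. The median difference was -0.42 over the 3 members and -0.0044 over all genes tested. Since the contrast was known when the genes were chosen, nothing is read from these counts.

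The summed level of the 10 genes followed *Prelp*. It came to 113 and 57.2 FPKM in the controls (mice 7984, 3911) against 75.2 and 52.8 FPKM in *Rax* iCKO (mice 7983, 3914), and *Prelp* made up between 71.1% and 88.2% of it. The groups overlapped, with means of 85.1 ± 39.5 FPKM (SD, n = 2) and 64.0 ± 15.8 FPKM (SD, n = 2) and a ratio of 0.752. That ratio was 1.12 without control mouse 7984 and 0.566 without control mouse 3911, both of which leave the runs of mouse numbers unequal. Without *Prelp* the sum was 14.4 ± 1.52 FPKM (SD, n = 2) in control and 14.4 ± 1.23 FPKM (SD, n = 2) in *Rax* iCKO. The makeup of that sum differed, with 2.15 and 2.25 times as much *Omd* as *Optc* RNA in control mice 7984 and 3911 and 9.68 and 13.7 times as much in *Rax* iCKO mice 7983 and 3914.

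The mice fall into 2 runs of numbers, 7983 and 7984, and 3911 and 3914, each with 1 mouse of each genotype. This split was not used to choose the genes, and the labels do not call it a batch. *Prelp* was higher in both mice of the first run, with a mean of 80.7 FPKM compared with 39.7 FPKM. Fitted with the genotype as a second term, the difference was 0.97 (standard error 0.16) on the log2 scale, and it passed the test (limma, Benjamini-Hochberg adjusted p = 0.00218). That call is common, since limma called 18.8% of all tested genes between the runs, and 8.88% as higher in mice 7983 and 7984. *Omd* (-0.36, standard error 0.18, adjusted p = 0.176 by limma) and *Optc* (-0.11, standard error 0.26, adjusted p = 0.801 by limma) did not pass. Outside the fit, *Fmod* and *Bgn* were also higher in both mice of the first run. That makes 3 of the 8 members with a mean above 0, beside 23.3% of all genes with a mean above 0.

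The genes around the clusters were measured in the same libraries. On chromosome 1, *Btg2*, an antiproliferative gene after *Fmod*, reached 474 and 411 FPKM in the controls (mice 7984, 3911) against 334 and 306 FPKM in *Rax* iCKO (mice 7983, 3914). Farther on, *Chil1*, which encodes a chitinase-like protein, reached 139 and 124 FPKM in control against 89.5 and 86.9 FPKM in *Rax* iCKO. Both were lower in *Rax* iCKO without overlap and neither was called by limma. On the other side of *Optc*, *Atp2b4*, for a plasma membrane calcium pump, was at 0.545 to 1.39 FPKM with overlapping groups. *Lax1*, *Mir6903* and *Chit1* were listed at 0. Within 24.215 kb, therefore, *Optc* at a mean of 2.50 FPKM lay beside *Prelp* at a mean of 60.2 FPKM.

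The chromosome 10 cluster was not detected, or nearly so, at this depth, together with what lies next to it. The symbols *4930473O22Rik*, *Gm10754*, *Ccer1*, *4930525C09Rik*, *4930556N09Rik* and *Mir3966* were listed at 0 in all 4 libraries, *Gm8633* was at 0.308 FPKM in control mouse 3911 alone, and *Btg1*, farther off, was at 36.1 to 57.5 FPKM. On chromosome 13, *Omd* stood out from the members of its own cluster. *Ecm2* and *Aspn*, both related leucine-rich repeat genes, stayed at or under 0.158 and 0.101 FPKM, and *Ogn* at or under 0.138 FPKM, where *Omd* reached 7.55 to 13.6 FPKM. Of the genes that flank this cluster, *Ippk* (3.82 to 4.91 FPKM) and *Iars* (16.8 to 24.1 FPKM) were higher in *Rax* iCKO without overlap and were not called. *Nol8* was at 1.40 to 3.997 FPKM, *Bicd2* at 4.03 to 6.64 FPKM, *Fgd3* at no more than 0.0740 FPKM and *Gm906* at 0.

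**Figure D3:**
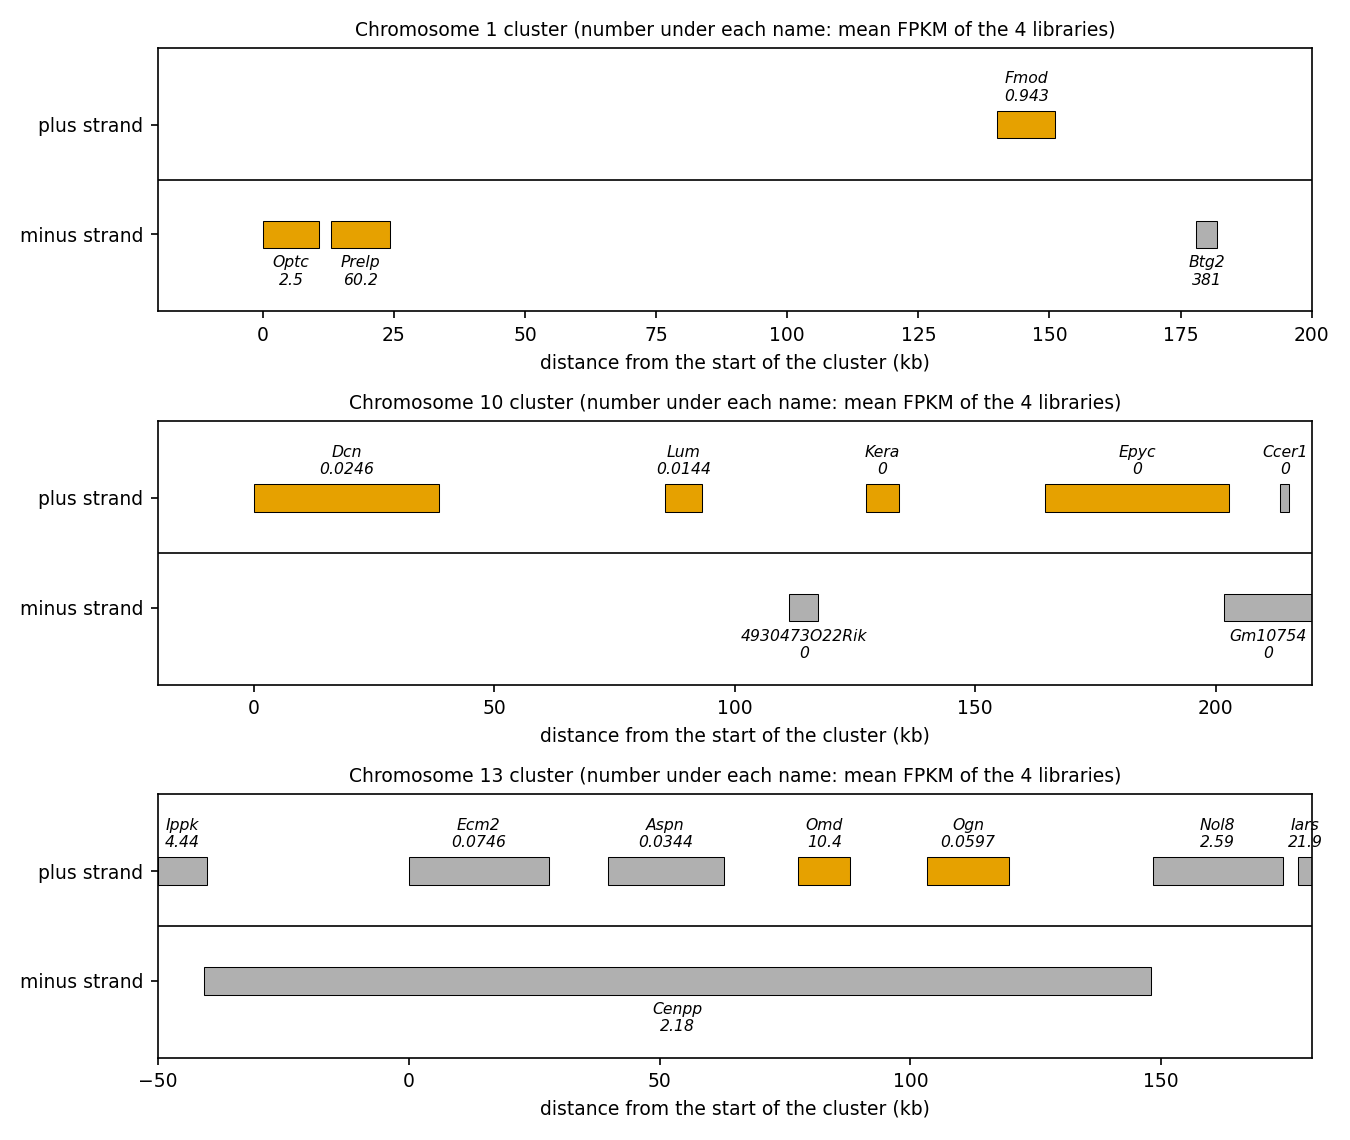
Genes of the 3 clusters drawn to scale by strand, with the distance from the start of the cluster in kb on the horizontal axis and the mean FPKM of the 4 libraries under each name. Members are orange and other measured genes grey. *Prelp* stands at 60.2 beside *Optc* at 2.50 on chromosome 1 and *Omd* at 10.4 beside *Ogn* at 0.0597 on chromosome 13, with no member of the chromosome 10 cluster above 0.0246.

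The 8 related leucine-rich repeat genes give the nearest comparison. *Chadl*, for a chondroadherin-like protein, was the highest with 92.9 and 60.4 FPKM in the controls (mice 7984, 3911) against 62.1 and 42.1 FPKM in *Rax* iCKO (mice 7983, 3914), with overlapping groups and a difference of -0.54 (standard error 0.31) on the log2 scale. Like *Prelp*, it was higher in mice 7983 and 7984 by limma (0.58, standard error 0.14, adjusted p = 0.0133), and the ratio of *Prelp* to *Chadl* stayed between 0.692 and 1.07 over the 4 libraries. *Nyx*, for nyctalopin of bipolar cell dendrites, ran from 8.22 to 17.8 FPKM, *Podn* from 1.83 to 4.80 FPKM and *Tsku* from 0.836 to 1.54 FPKM, all with overlapping groups. *Chad* did not pass 0.371 FPKM. *Podnl1* was at 0.282 and 0.171 FPKM in *Rax* iCKO and 0 in control. Of the 4 related genes in the fit, 0 were called between the genotypes, with a median difference of 0.10.

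The profile over the 4 libraries was compared with that of every tested gene by the root mean square distance of the centred log2(FPKM + 1) values, a likeness over 4 libraries that carries no test. Nearest to *Optc* were *Cebpd* (distance 0.0551), *Ifitm2* (0.0646), *Ly6g6d* (0.146), *Itm2a* (0.169) and *Ghrh* (0.170). *Cebpd*, which encodes a transcription factor, reached 23.2 and 30.6 FPKM in the controls (mice 7984, 3911) against 11.0 and 9.80 FPKM in *Rax* iCKO (mice 7983, 3914). By the same measure *Prelp*, the neighbour of *Optc*, ranked 7389 and *Omd* ranked 10705 among 12363 genes. Nearest to *Prelp* were *Sh3rf3* (0.0307), *Col18a1* (0.0565), *Slc39a1* (0.0585), *Adcy3* (0.0660) and *Adora1* (0.0679). *Col18a1*, the gene of a basement membrane collagen, reached 45.02 and 20.4 FPKM in the controls (mice 7984, 3911) against 28.8 and 18.4 FPKM in *Rax* iCKO (mice 7983, 3914), which follows the order of *Prelp*. Nearest to *Omd* were *Ccnt1* (0.0236), *Chtf18* (0.0289), *Cdc42ep3* (0.0303), *Htr3a* (0.0304) and *Coq2* (0.0313). The members with the highest levels thus had unlike profiles and no nearest gene in common.

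Of 18 collagens and other matrix genes of the vitreous, to whose fibrils opticin binds, 11 reached a mean FPKM of at least 1 and were tested, and *Habp2* was listed at 0 in all 4 libraries. *Col9a1*, for a chain of the type of collagen on the fibril surface, reached 717 and 646 FPKM in the controls (mice 7984, 3911) against 524 and 432 FPKM in *Rax* iCKO (mice 7983, 3914). It was the only one of the 11 tested matrix genes whose groups did not overlap, with a difference of -0.52 (standard error 0.28) on the log2 scale. *Col2a1*, the main fibril collagen of the vitreous, reached 158 and 73.1 FPKM in control against 92.7 and 50.1 FPKM in *Rax* iCKO, and *Efemp1* ran from 64.8 to 133 FPKM. limma called 0 of the 11 between the genotypes and 5 as higher in mice 7983 and 7984, a direction in which it called 8.88% of all tested genes. The medians of the 11 were -0.36 and 0.64 for these differences.

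RNA of most enzymes that build the sugar chains of these proteins was detected, with 24 of 26 genes above 0 in all 4 libraries. The exceptions were *Chst5* (0 to 0.362 FPKM) and *B3gnt7* (0 to 0.177 FPKM). Some of the others were also low, such as *Chst15* (0.0528 to 0.251 FPKM). Of the 21 tested, 0 were called and the median difference was -0.09. *B3gat3*, which completes the linker to the core protein, was at 32.8 and 31.8 FPKM in control and 39.97 and 36.2 FPKM in *Rax* iCKO. *Chpf* and *Dsel*, which act on chondroitin and dermatan sulfate, did not overlap either, with *Chpf* at 27.3 to 30.0 FPKM in control and 30.1 to 36.3 FPKM in *Rax* iCKO and *Dsel* at 5.44 to 6.18 FPKM in control and 3.78 to 4.24 FPKM in *Rax* iCKO. *Xylt2*, which adds the first sugar, was at 18.0 to 22.5 FPKM in control and 16.5 to 17.9 FPKM in *Rax* iCKO. *Chst2*, a sulfotransferase, divided by run instead, at 38.8 and 39.9 FPKM in mice 7983 and 7984 and 11.7 and 12.7 FPKM in mice 3911 and 3914.

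Among 31 binding partners and processing proteases, 17 were tested, 0 were called and the median difference was -0.10. *Kdr*, *Tgfb2* and *Vegfa* were the highest, with overlapping groups and ranges of 228 to 464, 113 to 139 and 59.6 to 141 FPKM. *Itgb1*, for an integrin chain, was lower without overlap, at 69.3 and 62.3 FPKM in control and 58.8 and 44.8 FPKM in *Rax* iCKO. Of 19 tested proteoglycans of other families, 0 were called. *Bcan*, for brevican, reached 9.47 and 4.95 FPKM in the controls (mice 7984, 3911) against 24.8 and 33.3 FPKM in *Rax* iCKO (mice 7983, 3914), a difference of 1.91 (standard error 0.34) on the log2 scale. *Ptprz1* (28.0 to 32.6 FPKM in control, 34.2 to 40.5 FPKM in *Rax* iCKO) and *Spock2* (10.2 to 14.4 FPKM and 16.4 to 20.8 FPKM) were higher without overlap and *Impg1* (4.29 to 5.26 FPKM and 1.84 to 3.72 FPKM) lower, while *Cspg5* (107 to 148 FPKM) and *Gpc3* (82.8 to 105 FPKM) overlapped. Over all 201 genes of these and the cell type lists, 118 were tested, 0 were called by limma and 5 were under 0.05 without adjustment.

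**Figure D4:**
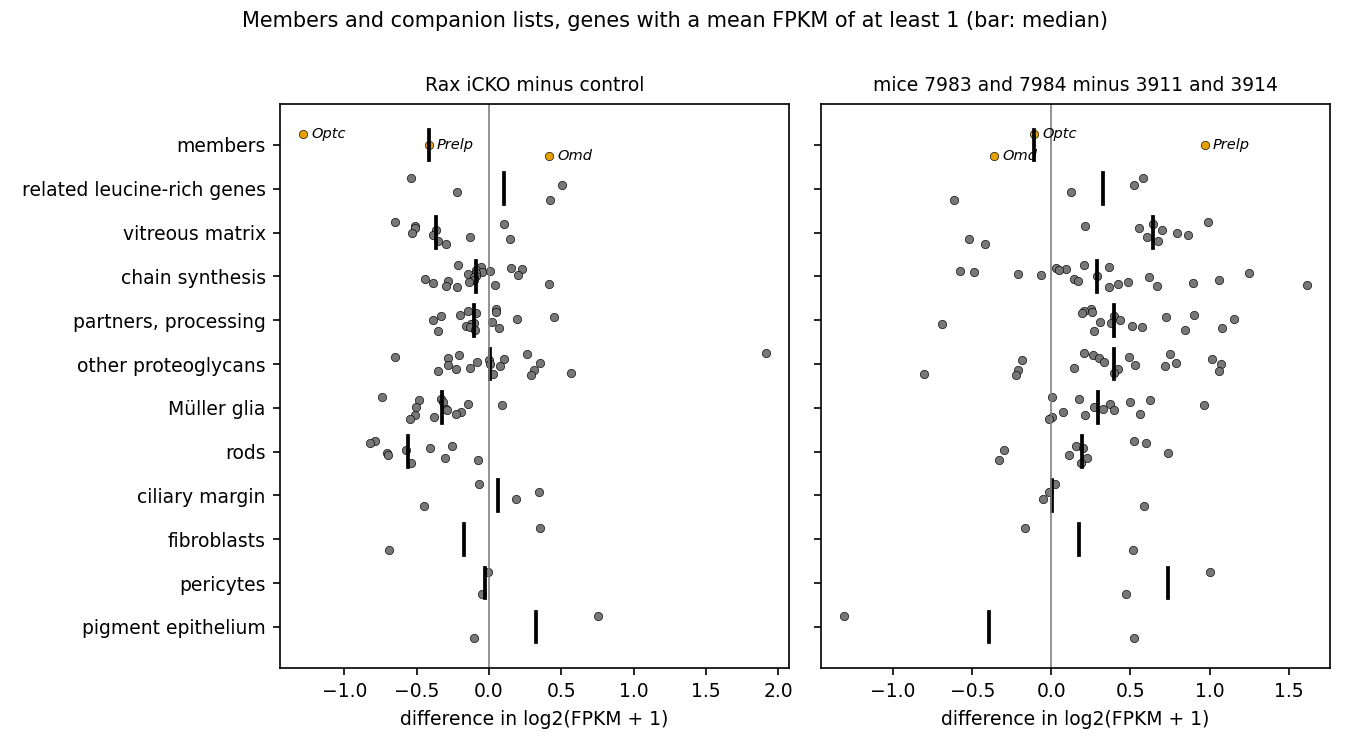
Difference in log2(FPKM + 1) of each tested gene in the members and the main companion lists, left for *Rax* iCKO minus control and right for mice 7983 and 7984 minus mice 3911 and 3914, with bars for medians. *Optc* lies at -1.28 and *Omd* at 0.41 on the left, and *Prelp* at 0.97 on the right beside a vitreous matrix median of 0.64.

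Markers of other cells are given because these proteins are best known from connective tissue and ciliary epithelium. Of 11 measured ciliary epithelium and margin genes 4 were tested, and the summed level came to 246 and 174 FPKM in the controls (mice 7984, 3911) against 192 and 140 FPKM in *Rax* iCKO (mice 7983, 3914). *Gas1* (101.2 to 208 FPKM), *Wfdc1* (20.4 to 21.9 FPKM) and *Bmp7* (11.2 to 16.7 FPKM) made up most of it, and *Zic1*, *Zic2*, *Msx1*, *Otx1* and *Bmp4* did not pass 0.388 FPKM. *Wfdc1* was lower and *Bmp7* and *Ccnd2* were higher in *Rax* iCKO without overlap, which differs in direction within the list. Of the 15 fibroblast genes, 7 were above 0 in all 4 libraries, with sums of 14.7 and 15.8 FPKM in control and 15.8 and 14.7 FPKM in *Rax* iCKO. *Twist1*, *Twist2*, *Dpt* and *Pi16* were listed at 0 and *Col1a1* did not pass 0.118 FPKM, as measured where *Dcn* and *Lum* were also at or near 0. *Pdgfra* (5.10 to 5.58 FPKM in control and 1.84 to 4.40 FPKM in *Rax* iCKO) and *Col1a2* (7.88 to 8.97 FPKM and 10.4 to 11.7 FPKM) did not overlap.

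Of 10 rod genes, 8 were lower in *Rax* iCKO without overlap and 2 (*Nrl* and *Rom1*) overlapped, beside 14.1% of all tested genes, and limma called 0 of them, with a median of -0.56 and sums of 1655 and 1669 FPKM in control compared with 1175 and 1084 FPKM in *Rax* iCKO. Of the 14 Müller glial markers, 6 were lower without overlap, with a median of -0.33, among them *Rlbp1* (2616 and 2159 FPKM in control, 1292 and 1560 FPKM in *Rax* iCKO), *Crym* and *Hes1*. The summed markers of pericytes (12.8 to 29.3 FPKM) were higher in mice 7983 and 7984, as were those of endothelium (244 to 491 FPKM). Most of the pericyte sum was *Pdgfrb* (10.3 to 24.7 FPKM), and *Acta2*, *Des* and *Myh11* did not pass 0.113 FPKM. *Kdr* (228 to 464 FPKM) was the largest part of the endothelium sum, and *Pecam1*, *Cdh5*, *Tek*, *Tie1* and *Emcn* did not pass 0.638 FPKM. The pigment epithelium markers summed to 5.53 and 8.01 FPKM in control and 8.99 and 10.6 FPKM in *Rax* iCKO, without overlap. *Ttr*, whose own groups overlapped (1.001 to 7.37 FPKM), was a large part of that sum. Neither tested gene of that list (*Ttr*, *Rgr*) separated the groups, and among those too low for the fit, *Best1* was lower and *Tyr* and *Tyrp1* were higher in *Rax* iCKO without overlap, all at or under 1.001 FPKM. The summed markers of astrocytes (121 to 180 FPKM), microglia (8.05 to 54.7 FPKM) and lens and cornea (0.713 to 6.12 FPKM) overlapped between the genotypes. limma called 0 genes of these lists. *Aqp4* (89.6 to 129 FPKM), which is also on the Müller glial list, made up most of the astrocyte sum. *Gfap* was at 4.38 to 8.94 FPKM, and *Pax2* did not pass 0.0381 FPKM. Within the astrocyte list, *Aldh1l1* was lower without overlap (44.2 and 30.5 FPKM in control against 22.4 and 20.9 FPKM in *Rax* iCKO), a difference of -0.74 (standard error 0.25) on the log2 scale. The part of any of these cells in the levels of *Optc*, *Prelp* and *Omd* was not tested.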

How the data were processed

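RNA-seq was performed on mTFP-positive cells of 4 mice (2 control and 2 *Rax* iCKO). Single-end reads had been aligned to mm10 by the authors, who deposited FPKM per gene symbol for each library. The submitters' processing notes name TopHat2 2.1.1, Bowtie2 2.2.8, SAMtools 0.1.18 and Cuffdiff 2.2.1, whereas the paper names Cufflinks and other versions, and the RNA isolation also differs between labels and paper. FPKM were used as deposited. They are relative to each library's mapped reads, so abundant genes shift the others.

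The members and lists were chosen with earlier results of these data known. limma 3.58.1 in R 4.3.3 (eBayes, trend on) was fitted to log2(FPKM + 1) of the 12363 genes whose mean FPKM reached 1, and p-values were adjusted by Benjamini-Hochberg, with calls at 0.05. Members under that limit are given by level. Each p-value sets a difference against the spread left among the 4 mice, which limma adjusts towards that of other genes of similar level. With 2 mice against 2, an exact permutation test cannot pass the threshold. The named genes are the members, *Rax*, up to 3 neighbours on each side of a cluster, the 5 genes nearest in profile to each member in the fit, all related leucine-rich repeat genes and, from each list, the 3 highest genes and up to 3 with the largest differences whose groups did not overlap. Other markers were named after their values were seen. Of the ciliary list, *Cpamd8* was not analysed here.

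Depth was estimated from whole-read steps in 540 genes with 1 transcript of at least 600 bases, with 200 bases taken off its length. The estimates of 52.6% of these genes lay within 10% of the value used, so read numbers are approximate. Positions are from GENCODE M21 (GRCm38) and upstream sequences from RefSeq (GRCm38.p6). The fit was checked on simulated data. Alternatives were a pseudocount of 0.1, a filter at 5 FPKM or none, values scaled by quantiles or to equal medians, a fit without the trend, a replicate block by run, and each mouse left out in turn.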

Additional observations from a re-analysis of the deposited data

How the results depend on the processing

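The difference of *Optc* stayed negative under every alternative run and was -1.84 with pseudocount 0.1. With each mouse left out in turn it ranged from -1.42 to -1.15. Since the groups did not overlap, only the scaling of values could have changed its sign. With a replicate block by run of mouse numbers, limma called 1 of the members instead of 0 (*Optc*, adjusted p = 0.0492 beside 0.574% of all genes called) and 3 genes of the companion lists instead of 0, among them *Bcan*. The labels do not state that the mice were paired. Without control replicate 1 (mouse 7984), 1 companion gene (*Bcan*) was called, and leaving out the other mice gave 0. Lower members without overlap numbered 1 among those tested, 2 with no filter, 0 at a mean FPKM of at least 5 (where *Optc* is not tested), and from 1 to 2 with a mouse left out, when 29.1% to 35.3% of all tested genes are lower in that sense, beside 14.1% with all mice. Higher members numbered 1, 0 after quantile normalization, 0 with equal medians, and from 1 to 2 with a mouse left out (29.66% to 35.02% of all tested genes, beside 15.4%). Between the runs of mouse numbers, 1 member was called, and 2 with no filter (*Prelp* and *Bgn*). The ratio of summed levels was 0.752, and from 0.566 to 1.12 with a mouse left out (the highest without control mouse 7984), although leaving out a mouse also leaves the runs unequal. For genes under 1 FPKM, pseudocount 0.1 changed the size of a difference. The comparison of runs could not be fitted with a mouse left out, since no residual degrees of freedom remain. Depth limits *Ogn*, *Dcn*, *Lum*, *Epyc* and *Kera*, which rest on at most 3 reads per library. The cause of these shifts was not tested.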
